A study of Homo sapiens with 12 samples.

Results

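Transcripts of 9 genes of extracellular proteolysis were measured in PC-3 cells, an androgen-independent line derived from human prostate adenocarcinoma. The genes were the matrix metalloproteinases MMP1, MMP2, MMP9, MMP13 and MMP14, urokinase (PLAU) and its receptor (PLAUR), and the metalloproteinase inhibitors TIMP1 and TIMP2. Members were found by name, by taking every probe, controls aside, whose RefSeq transcript belongs to one of these genes. The rule gave 10 of the 34127 probes on the array, 2 for PLAU and 1 for each other gene, and the 9 genes stood among 25473 genes tested. All 10 probes passed the filter on dim signal, which asks for a raw signal past the 90th percentile of the negative controls in 2 or more of the 12 channels.

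Total RNA of 12 samples was hybridised to 6 two-colour arrays on 2 slides, 1 sample per dye, in 6 groups of 2 samples. All cells were pools selected with G418 after stable transfection, together with a Td-Tomato plasmid, of either an empty vector or a PIM1 expression vector, PIM1 being a serine/threonine kinase. The control group carried the empty vector and the PIM1 group the PIM1 vector, with no NFATC1 vector. The WT and MM groups were empty-vector cells that transiently received NFATC1, a calcium-responsive transcription factor, either wild-type (WT) or as a multi mutant (MM) whose PIM1 target residues are alanine. The PIM1 + WT and PIM1 + MM groups were PIM1-vector cells given the same NFATC1 vectors. RNA was extracted on the day after transfection by the methods, although a later time is named elsewhere in the sources, and whether the 2 samples of a group came from separate transfections is not given. The p-values therefore measure only the spread between these samples, which may be technical. In bulk RNA, fewer cells with a transcript and less transcript per cell cannot be told apart.

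Cy3 was the dye of the control, WT and PIM1 + WT samples and Cy5 that of the remaining groups, with no dye swap. The differences PIM1 minus control, WT minus MM and PIM1 + WT minus PIM1 + MM therefore cross the dyes, and the dye and the group cannot be told apart in them. Within Cy3 stay WT minus control and PIM1 + WT minus WT, and within Cy5 stay PIM1 + MM minus MM and PIM1 + MM minus PIM1. Median raw intensity was 86 to 139 in the Cy3 channels and 176 to 318 in the Cy5 channels, and 56.9% to 69.0% of spots were well above background. The PIM1 + WT channels were the dimmest, with medians of 102 and 86. The array with the first control and PIM1 samples was set apart from the other 10 samples by the first split of an average-linkage clustering of all genes. The probe for PIM1 did not pass in any contrast of PIM1-labelled with matched cells. Its log2 difference had the labelled direction in PIM1 minus control (0.25, adjusted p = 0.107) and in PIM1 + MM minus MM (0.15, adjusted p = 0.338), and the opposite one in PIM1 + WT minus WT (-0.23, adjusted p = 0.136). The groups labelled PIM1 are thus called so by their labels. Between these groups the probe did differ, with -0.36 in PIM1 + WT minus PIM1 + MM (limma adjusted p = 0.0401). PIM1 transcript was also measured by real-time PCR in the study, which is not analysed here, and whether the probe lies in the part of the transcript that the vector carries is not known. NFATC1 transcript was not matched between the forms, with a log2 difference of -1.82 in WT minus MM (adjusted p = 3.63e-05), -2.07 in PIM1 + WT minus PIM1 + MM (adjusted p = 9.29e-06) and 0.44 in WT minus control (adjusted p = 0.0691). By limma it was also lower in PIM1 minus control (-0.67, adjusted p = 0.000231) and in PIM1 + WT minus WT (-0.44, adjusted p = 0.00203). In PIM1 + MM minus MM it had -0.20 (adjusted p = 0.104). Its mean log2 intensity was 7.58 in control and 7.58 in PIM1 + WT cells. The epithelial markers KRT8, KRT18, KRT19 and EPCAM were well above background in all 12 channels, and KLK3 was so in 0. At least 1 probe for each of PTPRC, PECAM1 and COL1A1, markers of other cell types, was also well above background in all 12 channels, so these flags do not by themselves separate cell types.

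Invasive tumour cells cross basement membrane and stroma with the help of secreted and membrane-bound proteases. MMP1 and MMP13 are interstitial collagenases, MMP2 and MMP9 are gelatinases that also cleave type IV collagen, and MMP14 is a membrane-type enzyme that cleaves collagen at the cell surface and, with TIMP2 as adaptor, activates the proenzyme of MMP2. Urokinase bound to its receptor PLAUR converts plasminogen to plasmin, which degrades fibrin and can activate several metalloproteinases. TIMP1 and TIMP2 bind the active sites of metalloproteinases, and TIMP1 is a poor inhibitor of MMP14. Many of these genes are classically induced through AP-1 sites, and NFAT factors bind a short GGAAA core, often beside AP-1.

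Promoter windows of 250 bases before the start were available in the RefSeq table (GRCh38.p14) for 4 of the 9 genes, MMP14, PLAU, PLAUR and TIMP1. Those of MMP14, PLAUR and TIMP1 are printed because these genes moved together between PIM1 + WT and PIM1 + MM cells, as described further on. Capitals mark matches on either strand to the NFAT core, GGAAA, in MMP14 and TIMP1. In PLAUR they mark a match on either strand to the AP-1 motif TGANTCA, and no match to one motif overlapped a match to the other.
MMP14, chr14:22836335-22836584, plus strand: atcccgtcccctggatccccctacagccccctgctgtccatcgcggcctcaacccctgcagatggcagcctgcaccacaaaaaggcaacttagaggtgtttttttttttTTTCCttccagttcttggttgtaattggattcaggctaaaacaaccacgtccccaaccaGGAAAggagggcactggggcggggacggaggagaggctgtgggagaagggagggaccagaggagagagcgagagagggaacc
PLAUR, chr19:43670170-43670419, minus strand: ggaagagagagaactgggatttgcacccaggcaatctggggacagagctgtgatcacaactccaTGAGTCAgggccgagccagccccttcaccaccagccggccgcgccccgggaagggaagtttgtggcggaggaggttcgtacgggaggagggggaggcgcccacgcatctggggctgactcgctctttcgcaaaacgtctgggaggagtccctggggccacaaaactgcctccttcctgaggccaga
TIMP1, chrX:47582186-47582435, plus strand: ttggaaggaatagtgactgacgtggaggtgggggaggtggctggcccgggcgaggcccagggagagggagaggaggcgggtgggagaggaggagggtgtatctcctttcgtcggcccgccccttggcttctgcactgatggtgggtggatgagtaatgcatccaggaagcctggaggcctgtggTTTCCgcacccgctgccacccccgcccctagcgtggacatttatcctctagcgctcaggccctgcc
The MMP14 window held 2 NFAT cores, 141 to 137 bases before the start on the reverse strand and 82 to 78 bases before it on the forward strand, and no AP-1 match. The TIMP1 window held 1 core, 66 to 62 bases before the start on the reverse strand, and no match to TGANTCA. The search does not count near matches to this pattern, such as the stretch tgagtaa in the TIMP1 window. The PLAUR window held no core and 1 AP-1 match, TGAGTCA, 186 to 180 bases before the start. PLAU has 2 windows in the table, both inside the span of the gene, of which 1 held a core and neither an AP-1 match. Of all 35116 promoter windows of this length, 55.6% held the core and 6.57% the AP-1 motif, so a core is the more common state.

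Levels are given as quantile-normalised log2 intensity, for the first and then the second sample of each group. A level cannot be compared between genes, since probes differ in brightness. Each first sample lay on slide 1 and each second sample on slide 2. Of the 9 genes, 8 were well above background by the scanner software in all 12 channels and MMP2 in 0.

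The collagenase MMP1 (chromosome 11, 102789919 to 102798160, transcript NM_002421) was read from 10 spots per channel, with a median SD between spots of 0.238. Its level was 10.56 and 10.48 in control, 10.43 and 10.42 in WT and 10.67 and 10.57 in MM cells, against 10.01 and 9.88 in PIM1, 9.96 and 9.92 in PIM1 + WT and 10.27 and 10.13 in PIM1 + MM cells. All 6 samples labelled PIM1 thus lay below all 6 others. Between PIM1 and PIM1 + WT cells, the lowest groups, the ranges overlapped, and no other neighbours in the order of group means did. MMP13, which cleaves type II collagen best (chromosome 11, 102942995 to 102955732, NM_002427), ranged only from 7.31 to 7.88 over the 12 samples. Its groups overlapped with their neighbours in the order down to PIM1 + MM cells, below which stood PIM1 + WT cells at 7.31 and 7.35.

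Of the gelatinases, MMP2 (chromosome 16, 55478830 to 55506691, NM_004530) was not well above background in any of the 6 groups, and no fold change is given for it. Its values of 5.96 to 6.44 are those of a spot near background. MMP9 (chromosome 20, 46008908 to 46016561, NM_004994; 10 spots per channel) stood at 8.93 and 8.84 in control, 8.67 and 8.68 in WT and 8.68 and 8.77 in MM cells. In the PIM1-labelled groups it stood at 8.04 and 8.08 in PIM1, 7.94 and 7.88 in PIM1 + WT and 8.11 and 8.12 in PIM1 + MM cells. The highest PIM1-labelled sample lay below the lowest of the others, and the order of groups was control, then MM and WT, which overlapped, then PIM1 + MM, PIM1 and PIM1 + WT.

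MMP14 (chromosome 14, 22836585 to 22847758, NM_004995), the membrane-type enzyme whose promoter with 2 cores is printed above, followed another pattern. Its level was 8.45 and 8.50 in control, 8.54 and 8.49 in WT and 8.43 and 8.27 in MM cells. PIM1 cells had 8.87 and 8.84, PIM1 + MM cells 8.60 and 8.66, and PIM1 + WT cells 9.55 and 9.61. Both PIM1 + WT samples lay above all 10 others, and only WT and control cells overlapped.

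Urokinase, PLAU (chromosome 10, 73908832 to 73917494), was taken as the median of its probes, at 13.26 and 13.26 in control, 13.31 and 13.29 in WT and 13.12 and 13.18 in MM cells. It stood at 12.97 and 12.93 in PIM1, 13.19 and 13.09 in PIM1 + WT and 12.63 and 12.61 in PIM1 + MM cells. PIM1 + MM cells were the lowest group, and MM and PIM1 + WT cells overlapped. The receptor PLAUR (chromosome 19, 43646095 to 43670169, NM_001005377), whose printed window holds the AP-1 match, read 10.94 and 10.80 in control, 10.77 and 10.78 in WT and 10.65 and 10.57 in MM cells. Its PIM1-labelled samples read 11.19 and 10.94 in PIM1, 11.37 and 11.36 in PIM1 + WT and 11.03 and 11.05 in PIM1 + MM cells. After normalisation PIM1 + WT cells were again the highest group, and PIM1 and PIM1 + MM cells overlapped. Raw PLAUR intensity in the dim PIM1 + WT channels was 1728 and 1458. In the other Cy3 channels it was 1819 and 1778.5 in WT and 1934.5 and 1740 in control cells.

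The inhibitor TIMP1 (chromosome X, 47582436 to 47586789, NM_003254) had 13.37 and 13.44 in control, 13.73 and 13.70 in WT and 13.27 and 13.29 in MM cells, and 14.15 and 13.97 in PIM1, 14.33 and 14.28 in PIM1 + WT and 13.56 and 13.48 in PIM1 + MM cells. No neighbouring groups of TIMP1 overlapped, and the order ran from PIM1 + WT through PIM1, WT, PIM1 + MM and control down to MM cells. TIMP2 (chromosome 17, 78852977 to 78925387, NM_003255), which both inhibits metalloproteinases and serves MMP14 as adaptor, stood between 14.82 and 15.09 in the 10 samples outside PIM1 + MM, and at 15.30 and 15.28 in PIM1 + MM cells, above all of them. No spot of the 9 genes was saturated.

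**Figure D1:**
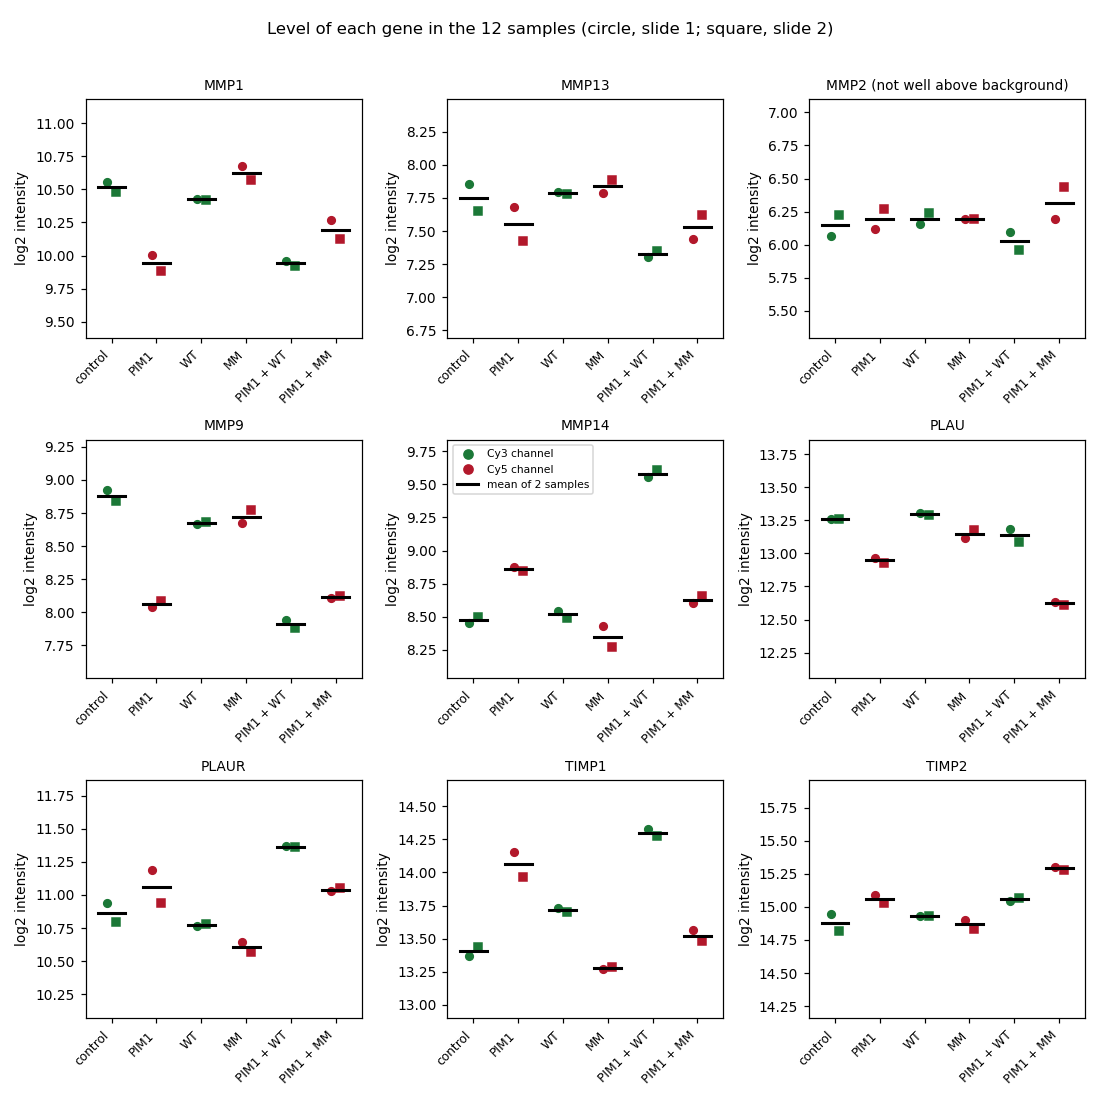
Each panel plots 1 gene's quantile-normalised log2 intensity (vertical axis) in the 6 groups (horizontal axis), with Cy3 channels in green and Cy5 channels in red, a circle for slide 1, a square for slide 2 and a bar at the mean of 2 samples. MMP1 and MMP9 lie lower in all 3 PIM1-labelled groups, MMP14 and PLAUR are highest in PIM1 + WT cells, PLAU is lowest in PIM1 + MM cells, and MMP2 was not well above background.

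The first question was how these genes differed between PIM1-labelled cells and their matched empty-vector cells. The same contrast could be made in 3 settings that share no samples, although they share the cell pools and the slides. In PIM1 minus control, 2 members rose (MMP14 and TIMP1) and 3 fell (MMP1, MMP9 and PLAU) at an adjusted p below 0.05 in limma, against 25.1% of all genes tested (12.7% rose and 12.5% fell). In PIM1 + WT minus WT, 3 rose (MMP14, PLAUR and TIMP1) and 3 fell (MMP1, MMP9 and MMP13), against 27.4% of all genes, 13.4% higher and 14.1% lower. In PIM1 + MM minus MM, 4 rose (MMP14, PLAUR, TIMP1 and TIMP2) and 3 fell (MMP1, MMP9 and PLAU), against 19.4% of all genes, 10% higher and 9.4% lower. MMP14 and TIMP1 rose and MMP1 and MMP9 fell in all 3, where 4.44% of all genes rose and 4.39% fell in all 3. The median log2 difference of the 9 members was -0.16 in PIM1 + WT minus WT, beside -0.00 for all genes. In PIM1 minus control and in PIM1 + MM minus MM the median fell on MMP2, near background, and is not given.

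MMP9 changed most among the proteases that fell. Its log2 difference was -0.82 (SE 0.060, n = 2 per group, limma adjusted p = 2.53e-05) in PIM1 minus control, -0.76 (SE 0.060, adjusted p = 3.15e-05) in PIM1 + WT minus WT and -0.61 (SE 0.060, adjusted p = 0.000196) in PIM1 + MM minus MM, which are 1.77-fold, 1.70-fold and 1.52-fold lower. MMP1 fell alongside, by 0.57 (SE 0.072, adjusted p = 0.000451), 0.48 (adjusted p = 0.00103) and 0.43 (adjusted p = 0.00342) on the log2 scale. Both genes kept their direction in the 3 contrasts under every alternative run, and their call in PIM1 minus control. Under median centring, in which only the median of each channel is aligned, MMP1 lost its call in PIM1 + WT minus WT (-0.74, adjusted p = 0.233) and in PIM1 + MM minus MM (-0.56, adjusted p = 0.899), and MMP9 in PIM1 + MM minus MM (-0.66, adjusted p = 0.224). MMP13, the other collagenase, fell by 0.46 (SE 0.104, adjusted p = 0.00928) in PIM1 + WT minus WT only, with -0.20 (adjusted p = 0.218) and -0.31 (adjusted p = 0.0713) in the other contrasts, and the call was lost without WT replicate 1 (adjusted p = 0.0575) or PIM1 + WT replicate 1 (adjusted p = 0.0604).

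MMP14 rose by 0.38 (SE 0.066, adjusted p = 0.00249) in PIM1 minus control, by 1.06 (SE 0.066, adjusted p = 1.05e-05) in PIM1 + WT minus WT and by 0.28 (SE 0.066, adjusted p = 0.0167) in PIM1 + MM minus MM. The change in the presence of WT NFATC1, 2.09-fold, was the only one of the members' changes past a log2 difference of 1, which 0.813% of all genes passed upward there, and it was 1.01 on slide 1 and 1.11 on slide 2. PLAUR, the urokinase receptor, had 0.20 (adjusted p = 0.138) in PIM1 minus control and rose by 0.59 (SE 0.086, adjusted p = 0.00085) beside WT and by 0.43 (adjusted p = 0.00752) beside MM NFATC1. Its ligand PLAU fell by 0.31 (SE 0.057, adjusted p = 0.00318) in PIM1 minus control and by 0.52 (adjusted p = 0.000322) beside MM NFATC1, and had -0.16 (adjusted p = 0.0719) beside WT NFATC1. Receptor and ligand thus moved in opposite directions in PIM1 + MM minus MM.

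Of the inhibitors, TIMP1 rose by 0.66 (SE 0.071, adjusted p = 0.000195), 0.59 (adjusted p = 0.000334) and 0.24 (adjusted p = 0.044) in the 3 contrasts, the first 1.58-fold. TIMP2 rose by 0.42 (SE 0.062, adjusted p = 0.00163) beside MM NFATC1, with 0.18 (adjusted p = 0.0618) in PIM1 minus control and 0.13 (adjusted p = 0.185) beside WT NFATC1. The rises of MMP14 and TIMP1 in PIM1 minus control, where the dyes differ, rested on the normalisation: with each channel centred on its median, which moves the median of all genes to 0.13, they were 0.00 (adjusted p = 0.995) and -0.09 (adjusted p = 0.824), while MMP1 was at -1.14, MMP9 at -1.13 and PLAU at -1.01, all passing. Within a dye, in PIM1 + WT minus WT, the same centring left MMP14 at 0.93 (adjusted p = 0.0495) and TIMP1 at 0.27 (adjusted p = 0.563). PLAUR lost its call there too (limma adjusted p = 0.483). In PIM1 + MM minus MM, TIMP1 did not pass without any 1 of the 4 samples (0.20 to 0.28), MMP14 without MM replicate 2 (0.21, adjusted p = 0.12) or PIM1 + MM replicate 2 (0.26, adjusted p = 0.0824), and PLAUR without MM replicate 2 (0.39, adjusted p = 0.0583). Without the array that stood apart, only 1 control and 1 PIM1 sample were left, both on slide 2. Their difference was -0.59 for MMP1, -0.75 for MMP9, -0.34 for PLAU, 0.34 for MMP14 and 0.53 for TIMP1. With 1 sample on each side, the spread within these groups could not be measured.

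**Figure D2:**
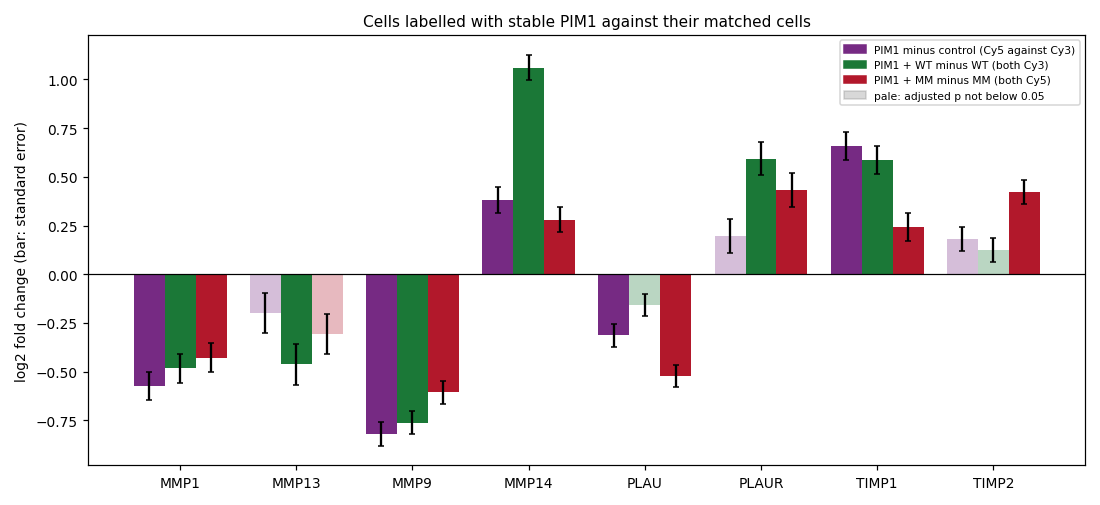
Bars give the log2 difference (vertical axis) with its SE for 8 members in PIM1-labelled cells against their matched cells. The settings are no NFATC1 vector, WT NFATC1 and MM NFATC1, and pale bars did not pass an adjusted p of 0.05. MMP1 and MMP9 lie below 0 and MMP14 and TIMP1 above 0 in all 3, and MMP14 reaches 1.06 in PIM1 + WT minus WT.

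The second question was how the genes differed between cells given WT and MM NFATC1, without and with stable PIM1. Without it, WT minus MM cells, 1 member passed: TIMP1, which was higher in WT cells by 0.44 (SE 0.071, adjusted p = 0.0332), with 0.46 on slide 1 and 0.41 on slide 2. Of all genes tested 0.793% passed at an adjusted p below 0.05. At an unadjusted p under 0.05 there were 4 members, and the share of all genes at that threshold was not counted. MMP14 had 0.17, PLAU 0.15, PLAUR 0.16 and MMP1 -0.20, none of which passed. Leaving out any 1 of the 4 samples ended the call of TIMP1, at 0.42 to 0.45, as did median centring, at 0.89 (adjusted p = 0.162).

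With stable PIM1, the form of NFATC1 went with more changes. In PIM1 + WT minus PIM1 + MM, 4 members rose and 3 fell, against 16.1% of all genes, 8.55% higher and 7.57% lower, and the median of the 9 members was -0.20 beside -0.03 for all genes. MMP14 was higher in PIM1 + WT cells by 0.95 (SE 0.066, 1.93-fold, adjusted p = 5.69e-05), by the same 0.95 on each slide. TIMP1 was higher by 0.78 (SE 0.071, 1.72-fold, adjusted p = 0.000191), PLAU by 0.51 (SE 0.057, 1.43-fold, adjusted p = 0.000484) and PLAUR by 0.33 (SE 0.086, 1.25-fold, adjusted p = 0.0318). The PLAU value came from 1 of its 2 probes, as shown further on, and PLAUR did not pass without any 1 of the 4 samples.

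The members that fell did so by small amounts. MMP1 fell by 0.26 (SE 0.072, adjusted p = 0.0423), TIMP2 by 0.24 (SE 0.062, adjusted p = 0.0318) and MMP9 by 0.20 (SE 0.060, adjusted p = 0.0497), so that the collagenase, the gelatinase and the MMP14 adaptor moved opposite to MMP14. MMP13 had -0.21 (adjusted p = 0.238), and MMP2, near background, is given no difference. Of these calls, that of MMP9 was kept in 5 of 20 alternatives, and leaving out 1 sample left 3 or 4 members passing. MMP9 and TIMP2 were lost whichever sample was left out, and MMP1 unless it was PIM1 + MM replicate 2. With each channel centred on its median MMP1 turned to 0.06 and none of the 7 passed, MMP14 being at 1.20 (adjusted p = 0.0646).

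The difference between these NFATC1 effects was tested as an interaction, (PIM1 + WT minus PIM1 + MM) minus (WT minus MM), from which any constant effect of dye on a gene cancels. MMP14 was the 1 member to pass, at 0.78 (SE 0.093, 1.72-fold, adjusted p = 0.00812), against 2.21% of all genes, with 0.83 on slide 1 and 0.73 on slide 2. PLAU had 0.37 (SE 0.081, adjusted p = 0.055), TIMP1 0.35 (SE 0.101, adjusted p = 0.124) and TIMP2 -0.30 (SE 0.087, adjusted p = 0.126), all with an unadjusted p under 0.05. The MMP14 value was 0.80 (adjusted p = 0.0543) without WT replicate 1 and 0.81 (adjusted p = 0.0573) without PIM1 + WT replicate 1, and 0.77 (adjusted p = 0.9997) with each channel centred on its median, where the call was lost too. MMP14 thus had a WT minus MM difference of 0.17 in empty-vector cells and 0.95 in PIM1-labelled cells. WT and MM samples of a slide shared an array, and with array as a block further members passed the interaction: PLAU as a fixed block (adjusted p = 0.0428), and PLAU (adjusted p = 0.0104), TIMP1 (adjusted p = 0.0367) and TIMP2 (adjusted p = 0.0273) as a random block. The share of all genes passing under these blocks was not counted.

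**Figure D3:**
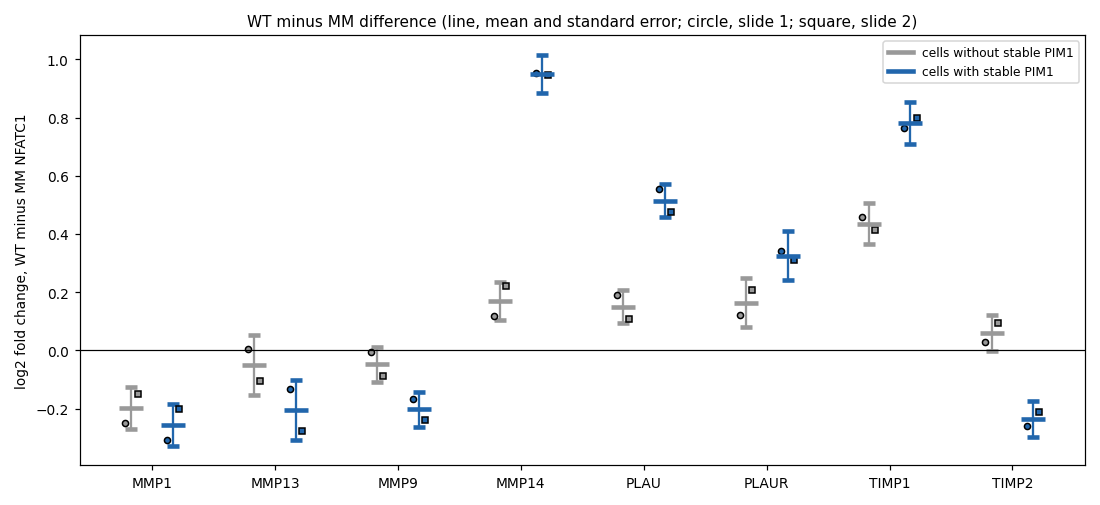
For 8 members, the log2 difference between cells with WT and with MM NFATC1 (vertical axis) is plotted per slide without stable PIM1 and with it. MMP14 moves from 0.17 to 0.95 and PLAU from 0.15 to 0.51, and TIMP2 lies below 0 only in PIM1-labelled cells.

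The probes of PLAU differed in what they showed. The probe for NM_002658, with 10 spots per channel, had 15.43 and 15.47 in control, 15.54 and 15.51 in WT, 15.45 and 15.51 in MM, 14.99 and 15.07 in PIM1, 15.14 and 14.99 in PIM1 + WT and 14.99 and 15.01 in PIM1 + MM cells. All 6 PIM1-labelled samples of this probe lay below the other 6, with differences of -0.42 (adjusted p = 0.00156), -0.46 (adjusted p = 0.000834) and -0.48 (adjusted p = 0.00125) in the 3 stable PIM1 contrasts. It differed by 0.06 (adjusted p = 0.607) between PIM1 + WT and PIM1 + MM cells, and its interaction was 0.02 (adjusted p = 0.975).

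The probe for NM_001145031, with 1 spot per channel, gave another picture. It had 11.10 and 11.05 in control, 11.07 and 11.06 in WT, 10.78 and 10.85 in MM, 10.94 and 10.78 in PIM1, 11.24 and 11.19 in PIM1 + WT and 10.28 and 10.21 in PIM1 + MM cells. PIM1 + WT cells were the highest group and PIM1 + MM cells the lowest, apart by 0.97 (adjusted p = 6.19e-05), with an interaction of 0.72 (SE 0.098, adjusted p = 0.0107). In the stable PIM1 contrasts it had -0.21 (adjusted p = 0.0539) in PIM1 minus control and 0.15 (adjusted p = 0.156) in PIM1 + WT minus WT, and it fell by 0.57 (adjusted p = 0.00061) in PIM1 + MM minus MM. The PLAU difference between WT and MM NFATC1 in PIM1-labelled cells therefore came from the single-spot probe, while both probes fell with stable PIM1 beside MM NFATC1. Which transcripts each probe hybridises to was not tested.

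**Figure D4:**
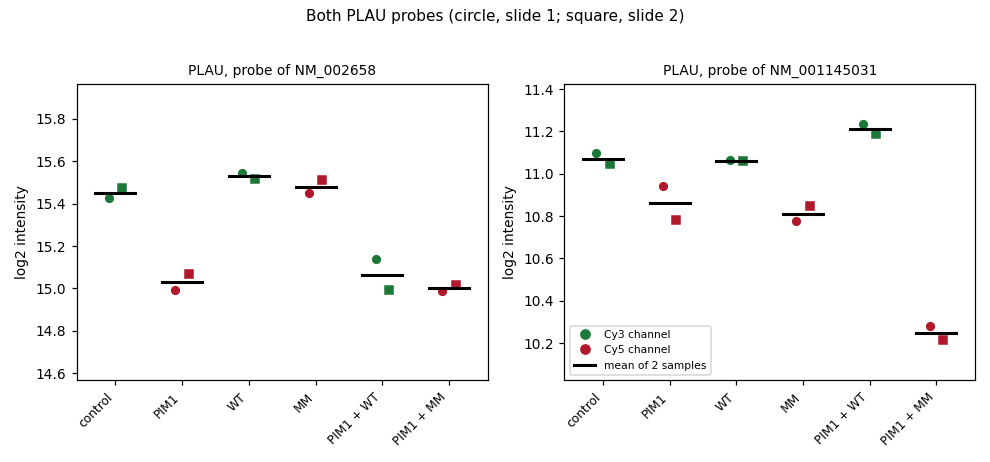
Log2 intensity (vertical axis) of the PLAU probes for NM_002658 and NM_001145031 is plotted in the 6 groups, with Cy3 in green, Cy5 in red and a bar at the mean of 2 samples. The first lies lower in all PIM1-labelled groups, and the second is highest in PIM1 + WT and lowest in PIM1 + MM cells.

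Adding an NFATC1 vector to cells that carried no such vector gave contrasts within a dye. In WT minus control, 0 members passed in limma, against 0.204% of all genes, and 0 under every alternative that kept all samples. An unadjusted p under 0.05 was held by 2, MMP9 at -0.21 (adjusted p = 0.241) and TIMP1 at 0.31 (adjusted p = 0.152). The share of all genes at that unadjusted threshold was not counted. In PIM1 + MM minus PIM1, 2 members fell and 1 rose, against 12.4% of all genes, 5.2% higher and 7.16% lower. TIMP1 fell by 0.54 (SE 0.071, adjusted p = 0.0029) and PLAU by 0.32 (SE 0.057, adjusted p = 0.00875), and TIMP2 rose by 0.23 (SE 0.062, adjusted p = 0.0432). MMP1 had 0.25 (adjusted p = 0.0538) and MMP14 -0.23 (adjusted p = 0.0543). The PLAU fall was -0.03 by the 10-spot probe and -0.62 (adjusted p = 0.00156) by the other, and TIMP2, which did not pass without any 1 of the 4 samples, was at 0.02 from the software's processed signal. A wild-type counterpart, PIM1 + WT minus PIM1, crosses the dyes and was not tested. NFATC1 transcript itself had 0.44 (limma adjusted p = 0.0691) in WT minus control and 2.73 (adjusted p = 9.32e-07) in PIM1 + MM minus PIM1. The counts of these contrasts therefore do not compare the forms of NFATC1 at equal transcript.

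The members' patterns over the 12 samples were compared after subtracting each dye's mean, as a description over samples that share arrays, slides and groups. MMP14 and MMP9 ran opposite (Pearson r = -0.944), as did PLAU and TIMP2 (r = -0.943), and MMP1 and MMP9 ran together (r = 0.937). Among 12171 genes well above background in all channels, the genes most like MMP14 were ULBP2, CA5BP1 and SUMF2 (r = 0.988 to 0.986). For MMP9 they were AUNIP, NEFL and METRNL (r = 0.997 to 0.992), and for MMP1 TMEM191A, HRK and MNX1-AS1 (r = 0.991 to 0.989). For PLAU they were PI4KA, CAMK2B and DGCR6L (r = 0.985 to 0.965), and for PLAUR ACP6, JMJD7 and DAG1 (r = 0.990 to 0.986). For MMP13 they were UACA, NINL and GOPC (r = 0.983 to 0.982), and for TIMP2 DUSP13A, LXN and TAP1 (r = 0.966 to 0.959).

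A further 40 genes of extracellular proteolysis were read beside the members: other metalloproteinases and their regulators, the rest of the plasminogen system, ADAM proteases, and membrane serine proteases with their inhibitors. Of these, 27 were well above background in all 12 channels and 7 in none (MMP3, MMP7, MMP8, TIMP3, SERPINB2, PLG and HPN), so plasminogen itself and several soluble metalloproteinases were not well above background. In PIM1 minus control 13 rose and 4 fell, in PIM1 + WT minus WT 12 rose and 5 fell, and in PIM1 + MM minus MM 9 rose and 5 fell, against 25.1%, 27.4% and 19.4% of all genes in either direction. With each channel centred on its median 9 rose and 3 fell, 2 rose and 0 fell, and 1 rose and 0 fell. HPN, at background, is among the 9 that rose in the last. In the plasminogen system 6, 4 and 3 of 10 genes rose in these contrasts and 1, 1 and 3 fell, and among the 13 other metalloproteinases 1, 2 and 1 rose and 0, 1 and 1 fell.

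ADAMTS1, a secreted protease that cleaves aggrecan and versican, rose most of the 40 genes, by 1.90 (SE 0.066, adjusted p = 7.09e-07), 1.70 (adjusted p = 1.32e-06) and 1.52 (adjusted p = 2.27e-06) in the 3 stable PIM1 contrasts. SERPINB5 (maspin), a serpin known as a tumour suppressor of epithelial cells, rose by 0.99 (adjusted p = 0.00122), 0.86 and 1.30, the first read on slide 2 alone because its values on slide 1 were missing. TIMP4, another inhibitor of metalloproteinases, rose by 0.61 (adjusted p = 0.00196), 0.62 (adjusted p = 0.00164) and 0.86 (adjusted p = 0.00051). These directions held in each scaling run. With each channel centred on its median ADAMTS1 passed in all 3 contrasts, TIMP4 in PIM1 minus control (0.86, adjusted p = 0.0242) and PIM1 + WT minus WT (0.90, adjusted p = 0.038), and SERPINB5 in 0, at 0.15 in PIM1 minus control (adjusted p = 0.721).

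BSG (basigin or EMMPRIN), a surface glycoprotein known to induce metalloproteinases in neighbouring cells, was likewise highest in PIM1 + WT cells. It rose by 0.96 (SE 0.076, adjusted p = 3.7e-05) in PIM1 minus control and by 1.06 (adjusted p = 1.91e-05) in PIM1 + WT minus WT, but had -0.09 (adjusted p = 0.488) in PIM1 + MM minus MM, where MMP14 rose. Its difference was 1.40 in PIM1 + WT minus PIM1 + MM (adjusted p = 3.45e-05) and fell by 0.88 in PIM1 + MM minus PIM1 (adjusted p = 0.000694). Its interaction was 1.15 (SE 0.107, adjusted p = 0.00452), with 1.30 on slide 1 and 1.00 on slide 2. With each channel centred on its median BSG was at 0.23 (adjusted p = 0.466) in PIM1 minus control, 0.76 (adjusted p = 0.18) in PIM1 + WT minus WT and 1.68 (adjusted p = 0.0554) in PIM1 + WT minus PIM1 + MM, none of which passed.

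In WT minus MM and in WT minus control 0 of the 40 genes passed in limma, against 0.793% and 0.204% of all genes. At an unadjusted p under 0.05 there were 10 and 6, and the share of all genes at that threshold was not counted. In PIM1 + WT minus PIM1 + MM 8 rose and 2 fell, among them SPINT1, an inhibitor of matriptase and hepsin, at 0.74 (adjusted p = 0.000188) and the membrane protease ADAM15 at 0.63 (adjusted p = 0.000125), against 16.1% of all genes in either direction. In PIM1 + MM minus PIM1 0 rose and 8 fell, among them S100A10, a cell-surface plasminogen receptor subunit, by 0.50 (adjusted p = 0.00378) and FURIN, the convertase that activates MMP14, by 0.39 (adjusted p = 0.0192), against 12.4% of all genes. With each channel centred on its median 0 of the 40 passed in either contrast, SPINT1 being at 1.06 (adjusted p = 0.0968), ADAM15 at 0.81 (adjusted p = 0.283), S100A10 at -0.25 and FURIN at -0.33. The interaction was passed by 5 of the 40 genes, 4 upward and 1 downward, against 2.21% of all genes. Beside BSG it was 0.45 (adjusted p = 0.019) for MMP15, a membrane-type metalloproteinase named here after its values were seen, 0.42 (adjusted p = 0.0258) for ADAM15, 0.45 (adjusted p = 0.0491) for SPINT1 and -0.51 (adjusted p = 0.0406) for ADAM8, another membrane protease. None of the 5 passed with each channel centred on its median.

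**Figure D5:**
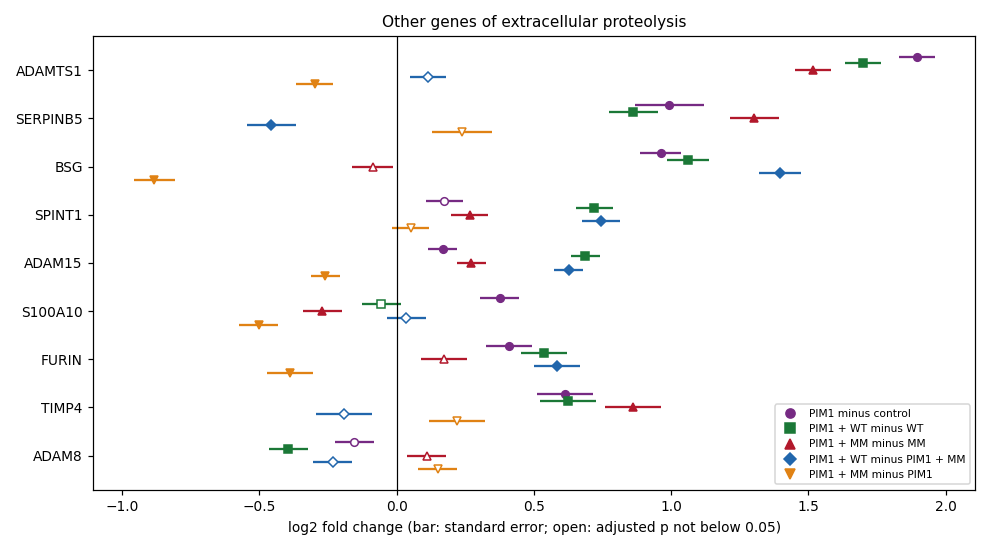
For 9 other genes of extracellular proteolysis (vertical axis) the log2 difference with its SE (horizontal axis) is plotted in 5 comparisons, with open symbols for differences that did not pass. ADAMTS1 and SERPINB5 lie above 0 in the 3 stable PIM1 contrasts, and BSG is near 0 beside MM NFATC1 and at 1.40 between PIM1 + WT and PIM1 + MM cells.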

How the data were processed

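Total RNA of 12 PC-3 samples was hybridised as 12 dye channels on 6 two-colour Agilent arrays, and each sample was read from the channel of its labelled dye. The authors deposited raw median signal intensity per spot, extracted with the Agilent Feature Extraction software, together with background, flags and a processed, dye-normalised signal. A second table deposited by the authors held log2 values. Recomputed as quantile-normalised log2 median signal per spot, it differed by 0.0844 at most. Of 34127 probes on 43118 non-control spots, 31486 were above the 90th percentile of 153 negative control spots in at least 2 channels and were kept. Outlier spots were left out, no background was subtracted, the spots of a probe were averaged as log2, the channels were quantile normalised and the median was taken per symbol. Symbols came from RefSeq transcripts (GRCh38.p14), and 26377 probes had one. Group means were fitted over the 12 samples with limma 3.58.1 (R 4.3.3), with two-sided p-values adjusted by Benjamini-Hochberg over 25473 genes. A gene passed at an adjusted p below 0.05. The fit was tested on simulated data. The number of arrays limits the precision.

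The genes named were the 9 members, PIM1 and NFATC1. Of 40 listed genes of extracellular proteolysis, those named passed with an absolute log2 difference of 1 or more, or were among the 3 largest passing changes of a comparison. The 3 genes most correlated with each measured member were named as well, except those of TIMP1, which are not reported here. The members and lists were chosen with earlier results of these data known. The alternatives concerned background, normalisation, filter, probe summary, blocks and left-out samples. Duplicate spots of 1 probe share an array and are not replicates.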

Additional observations from a re-analysis of the deposited data

Results flagged for a closer look

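Limma's interaction term was passed by 2.21% of all genes tested. For 7 readings the difference between WT and MM NFATC1 was by this term not the same in PIM1-labelled as in empty-vector cells. Among the members these were MMP14, at 0.78 on the log2 scale (adjusted p = 0.00812), and the PLAU probe for NM_001145031, at 0.72 (adjusted p = 0.0107), while the other PLAU probe had 0.02. Among the other genes of extracellular proteolysis they were BSG at 1.15, MMP15 at 0.45, SPINT1 at 0.45 and ADAM15 at 0.42, all larger in PIM1-labelled cells, and ADAM8 at -0.51. NFATC1 transcript itself differed between the WT and MM groups by -1.82 in empty-vector and by -2.07 in PIM1-labelled cells, and its part in these differences was not tested.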

How the results depend on the processing

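Over all other settings, the members' passing differences kept their direction and their call 488 times, kept only the direction 94 times and reversed 2 times. Both reversals came with each channel centred on its median, where MMP1 was 0.056 in PIM1 + WT minus PIM1 + MM and TIMP1 was -0.089 in PIM1 minus control. That centring moved the median of all genes to 0.13 in PIM1 minus control, -0.11 in PIM1 + WT minus PIM1 + MM and 0.14 in PIM1 + WT minus WT. It left 0 members passing in the interaction, in PIM1 + MM minus MM, in PIM1 + MM minus PIM1, in PIM1 + WT minus PIM1 + MM and in WT minus MM, and 2 in PIM1 + WT minus WT.

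For the interaction, passed by 1 member, 3 members passed with loess or with the filter in all 12 channels, 2 with the deposited values, with each probe as its own feature, with array as a fixed block or with the first rows of PIM1 + MM replicate 2 left out, and 4 with array as a random block. In PIM1 + WT minus PIM1 + MM, 4 passed with loess, with the processed signal or with only the groups compared, in place of 7. In PIM1 + MM minus PIM1, 0 passed with only the groups compared and 5 without those first rows, in place of 3. In PIM1 minus control, 8 passed with array as a fixed block, in place of 5. The share of all genes passing was counted only for the processing described above, not under any alternative setting. In WT minus MM, 0 passed with normexp, with the processed signal or with only the groups compared. Leaving out 1 sample gave 0 to 1 for the interaction, 4 to 6 for PIM1 + MM minus MM (4 without MM replicate 2), 3 to 4 for PIM1 + WT minus PIM1 + MM and 0 to 0 for WT minus MM.

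With the slide as a replicate block, which pairs each group's samples by slide, 6 members passed in PIM1 minus control, 6 in PIM1 + WT minus PIM1 + MM and 4 in PIM1 + MM minus PIM1, and the other counts were as without it. Leaving out the first rows, and leaving out the array that stood apart, were chosen after seeing the data. In the first rows of PIM1 + MM replicate 2, where signal was low, lay 1 of 10 spots each of MMP1 and MMP9. By the 90th percentile of the negative controls MMP2 was below background in 2 groups, in place of 6 by the software's flag. The cause of these shifts was not tested. Signal over background limits MMP2, for which no difference can be read.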
